A study of Mus musculus with 8 samples.

Results

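Intergenic LSK peaks within 50 kb of a transcription start site were examined in the Omni-ATAC-seq libraries of the series. LSK cells are the lineage-negative, Sca1-positive, cKit-positive fraction of bone marrow, which holds hematopoietic stem cells and multipotent progenitors. A peak was a member when the deposited ChIPseeker annotation of the MACS2 peaks read intergenic and the listed distance to the nearest start site was at most 50 kb. Of 114628 peaks in the 4 libraries, 20662 met this rule. Overlapping member peaks were merged into 12783 member regions, called members below and assigned to 7070 genes by the nearest start site. A separate merge of the peaks of all annotations gave 60531 regions, which are the merged regions used for comparison. The libraries were 2 from WT and 2 from Dido1∆E16 LSK cells of C57BL/6 mice. In the Dido1∆E16 mice (Dido1 flE16/∆E16; R26R-EYFP; iCre Vav1), a germline-deleted allele was combined with a floxed 3′-terminal exon 16 of Dido1, which Vav1-driven iCre removes in hematopoietic cells. The mice called WT were Dido1 flE16/+ littermates with the same EYFP reporter and the same iCre transgene, so that in both groups iCre acted on a floxed allele and the controls kept a single functional one. The methods describe animals 6 to 10 weeks old, matched for sex and age in each experiment, while the description of the ATAC-seq tracks gives males of different ages, and the ages of the single libraries are not given in the sources used here. The libraries of a genotype are described as biological replicates, while nothing in the labels says that they came from separate animals, so the p-values below measure only the spread between these libraries.

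Intergenic accessible regions near genes include enhancers, which bind transcription factors and act on promoters at a distance, and insulator sites bound by CTCF, a zinc-finger protein that helps to fold chromatin into loops. In stem and progenitor cells such regions are commonly bound by factors of the GATA, ETS, RUNX, E protein and C/EBP families. Dido1 encodes the Dido proteins, and exon 16 codes for the C terminus of the longest of them, Dido3. ATAC-seq uses the Tn5 transposase to insert adapters into DNA that is not covered by nucleosomes, so a peak marks DNA that was open in a share of the cells. In bulk cells, a lower signal in each cell and fewer cells with an open region cannot be told apart.

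The results turn on 2 kinds of sequence, which were read from the plus strand of GRCm38.p6 (the mm10 coordinates of the files) from 5′ to 3′. The first kind holds a match to the core motif of CTCF in a region with a peak in both WT libraries and in neither Dido1∆E16 library. They are among the highest-scoring regions of that kind with under 50% of the window masked as repeat, named by the nearest gene, and capitals mark the CTCF match.
Cldn10, chr14:118768187-118768266: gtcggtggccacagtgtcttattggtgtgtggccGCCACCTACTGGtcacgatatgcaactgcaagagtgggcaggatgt
Kcnh8, chr17:52560092-52560171: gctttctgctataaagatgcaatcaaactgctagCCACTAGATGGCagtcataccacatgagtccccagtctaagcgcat
Fthl17f, chrX:9077895-9077974: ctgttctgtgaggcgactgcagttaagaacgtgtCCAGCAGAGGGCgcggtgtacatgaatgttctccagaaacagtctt
Pole4, chr6:82702868-82702947: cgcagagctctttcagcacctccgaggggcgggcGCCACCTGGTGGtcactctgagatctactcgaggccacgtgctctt

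The other kind shows the range of base composition among the members, with every CpG in capitals. The regions near Meis1 and Nkx2-3, which code for homeobox transcription factors, and near Lmo2, which codes for an adaptor of transcription factor complexes, had WT peaks only. The region near Hlf, which codes for a transcription factor active in hematopoietic stem cells, had a peak in all 4 libraries. The region near 1500009L16Rik had peaks in both Dido1∆E16 libraries and in no WT library.
Meis1, chr11:19020406-19020605: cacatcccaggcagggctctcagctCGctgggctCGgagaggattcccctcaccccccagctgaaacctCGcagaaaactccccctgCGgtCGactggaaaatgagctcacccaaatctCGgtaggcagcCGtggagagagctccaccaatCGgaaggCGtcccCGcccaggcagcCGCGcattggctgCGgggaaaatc
Lmo2, chr2:103944954-103945153: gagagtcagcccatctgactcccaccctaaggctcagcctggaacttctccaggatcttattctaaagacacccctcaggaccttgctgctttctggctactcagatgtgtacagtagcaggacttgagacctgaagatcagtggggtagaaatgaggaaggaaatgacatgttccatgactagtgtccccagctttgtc
Nkx2-3, chr19:43579521-43579720: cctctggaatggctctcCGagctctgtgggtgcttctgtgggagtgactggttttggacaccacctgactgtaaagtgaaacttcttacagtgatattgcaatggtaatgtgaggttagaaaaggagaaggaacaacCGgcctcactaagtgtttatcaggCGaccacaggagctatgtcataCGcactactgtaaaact
Hlf, chr11:90417967-90418166: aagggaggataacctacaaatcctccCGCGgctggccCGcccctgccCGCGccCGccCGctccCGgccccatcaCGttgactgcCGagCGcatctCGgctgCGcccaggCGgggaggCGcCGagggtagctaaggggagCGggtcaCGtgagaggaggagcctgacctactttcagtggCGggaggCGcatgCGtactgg
1500009L16Rik, chr10:83699459-83699658: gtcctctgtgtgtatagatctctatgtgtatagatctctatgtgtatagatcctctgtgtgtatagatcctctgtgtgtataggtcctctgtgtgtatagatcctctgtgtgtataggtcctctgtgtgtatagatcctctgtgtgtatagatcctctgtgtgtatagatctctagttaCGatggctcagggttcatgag
These windows hold 13, 0, 4, 21 and 1 CpG, and the last is built from short repeated units.

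Members made up a smaller share of the peaks in the Dido1∆E16 libraries than in the WT libraries. The number of member peaks was 4837 of 27352 in WT replicate 1 (17.7%) and 12080 of 57739 in WT replicate 2 (20.9%). It was 1517 of 13208 in Dido1∆E16 replicate 1 (11.5%) and 2228 of 16329 in Dido1∆E16 replicate 2 (13.6%). The groups did not overlap, at 19.3% ± 2.29 in WT and 12.6% ± 1.53 in Dido1∆E16 (SD, n = 2), a difference of -6.74 percentage points. An exact two-sided permutation test gave p = 0.333, which is the smallest value that 2 libraries against 2 can give. Within each genotype the library with more tags had more member peaks, while over the 4 libraries tags and peaks were in different orders. The part of sequencing depth in the difference was not tested. WT replicates 1 and 2 held 10249256 and 52050898 tags, and Dido1∆E16 replicates 1 and 2 held 22533077 and 44633938. WT replicate 1, with the fewest tags, had more member peaks than either Dido1∆E16 library, and member peaks per 1000000 tags were 472 and 232 in WT against 67.3 and 49.9 in Dido1∆E16. When each library was limited to its 13208 best-scoring peaks, the member shares were 14.7% and 14.5% in WT and 11.5% and 12.6% in Dido1∆E16, still without overlap.

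**Figure D1:**
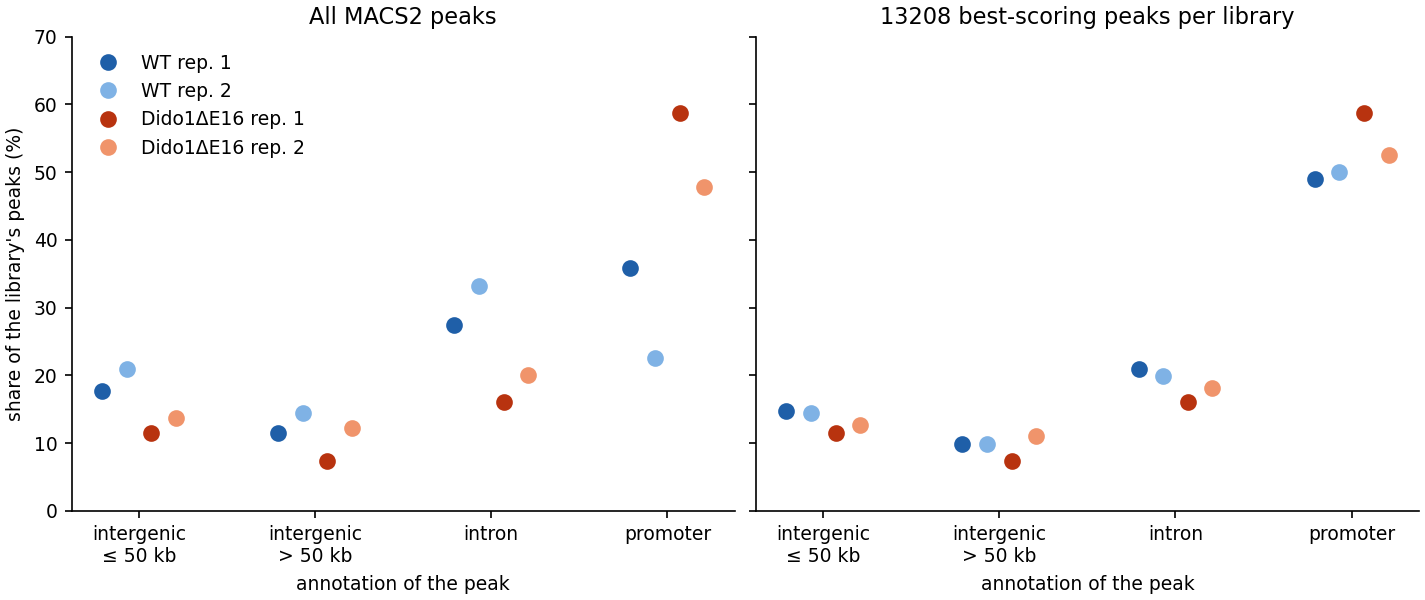
The share of each library's MACS2 peaks in percent is plotted by annotation, with a point for each of 2 WT and 2 Dido1∆E16 libraries, for all peaks on the left and for the 13208 best-scoring peaks of each library on the right. For intergenic peaks within 50 kb both WT points lie above both Dido1∆E16 points, at 17.7% and 20.9% against 11.5% and 13.6% on the left, whereas promoters show the opposite order.

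The cell type was checked on promoter peaks of marker genes. Kit, Cd34, Flt3 and Meis1, which mark or act in stem and progenitor cells, had a promoter peak in all 4 libraries, and of 8 LSK markers 6 and 6 had one in WT against 4 and 4 in Dido1∆E16. Ly6a, which codes for the Sca1 antigen used in the sort, had none in any library. Of 4 markers each for B cells, erythroid cells, and granulocytes and monocytes, 1 had a promoter peak in WT replicate 2 and none in the other libraries, and no T-cell marker had one in any library.

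Most members seen in both WT libraries had no peak in either Dido1∆E16 library. Of 4586 such members, 2661 (58.0%, 95% Wilson interval 56.6 to 59.4, counting error only) had WT peaks only, 1152 (25.1%) had a peak in 1 Dido1∆E16 library and 773 (16.9%) had one in all 4 libraries. Over all regions seen in both WT libraries, 43.1% had no Dido1∆E16 peak, and regions with WT peaks only were 18.4% of all merged regions against 20.8% of the members. The share was like that of introns, at 61.0%, and of intergenic regions beyond 50 kb, at 61.1%, whereas promoters had 14.9%. The members were thus nearer to the other distal regions than to promoters in this count, and no test was applied to these differences. The WT libraries also differed from each other, since 7033 members had a peak in WT replicate 2 alone and 237 in WT replicate 1 alone. In the reverse direction, 22 of 875 members seen in both Dido1∆E16 libraries had no WT peak (2.51%, against 1.01% of all regions), and regions with Dido1∆E16 peaks only were 0.172% of the members against 0.16% of all merged regions. When each library kept 13208 peaks, 325 members had peaks in both WT libraries only and 147 in both Dido1∆E16 libraries only. Over all annotations these counts were 1305 and 956. With single libraries left out, the count of members with Dido1∆E16 peaks only was 23 to 303. Such a count asks only about the libraries that remain, so it is looser and rises by definition.

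The share without a Dido1∆E16 peak depended strongly on the score of the WT peak. Regions seen in both WT libraries were ranked by the mean rank percentile of their MACS2 score and split into 5 equal classes over all annotations. The formula of this deposited score was not given, and the classes are called weakest to strongest by score alone. From the weakest to the strongest class, 82.2%, 72.6%, 58.7%, 35.3% and 8.14% of the members had no Dido1∆E16 peak. Promoters had lower shares in each class, at 60.6%, 29.3%, 15.1%, 5.87% and 0.389%, while introns had 86.1%, 72.1%, 60.7%, 37.0% and 7.03%. Promoters also had higher scores, with 36.2% of them in the strongest class against 10.2% of the members. When 13208 peaks were kept per library, 26.3% of the members seen in both WT libraries had no Dido1∆E16 peak against 2.74% of promoters. The share was then 28.1% in introns, 29.8% in intergenic regions beyond 50 kb and 13.3% over all annotations.

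**Figure D2:**
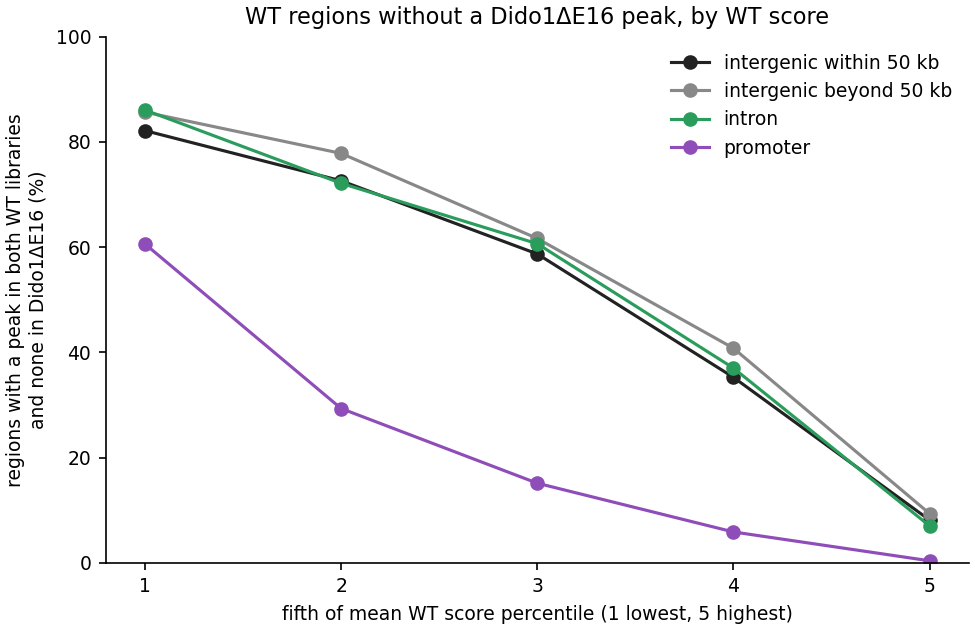
The percentage of regions with a peak in both WT libraries and none in either Dido1∆E16 library is plotted by class of WT score from 1 (weakest) to 5 (strongest), with a line for each kind of region. The line of the members falls from 82.2% to 8.14% near those of introns and of intergenic regions beyond 50 kb, and above that of promoters, which falls from 60.6% to 0.389%.

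The other peak caller, HOMER, gave partly different answers for single regions. Of the 2661 members with WT peaks only, 309 (11.6%) overlapped a HOMER peak of Dido1∆E16 replicate 1 and 745 (28.0%) one of Dido1∆E16 replicate 2. No HOMER peak of either Dido1∆E16 library was found at 66.3% of them, and 1067 (40.1%) had HOMER peaks in both WT libraries as well as none in Dido1∆E16. A missing MACS2 peak was thus not the same as missing signal. With HOMER peaks alone, 39.1% of members seen in both WT libraries were without a Dido1∆E16 peak, against 7.27% of promoters. The share was 40.7% in introns, 43.6% in intergenic regions beyond 50 kb and 27.4% over all annotations.

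Tag counts were deposited for the regions that the authors' own tests had selected, which overlapped 1578 members (12.3%). Since these regions were selected for a difference between the same libraries, their direction is given as a description only. Both Dido1∆E16 values lay below both WT values in 1577 of them. Among members with WT peaks only, 663 (24.9%) were covered, with median log2 tag counts of 5.58 and 5.53 in WT and 4.60 and 4.60 in Dido1∆E16. Among members with a peak in all 4 libraries, 296 (38.3%) were covered, with medians of 7.33 and 7.26 in WT and 6.37 and 6.22 in Dido1∆E16. In the Dido1∆E16 libraries, tags thus remained in selected regions that overlapped members without a MACS2 peak. Each member took the counts of the widest selected region overlapping it, which can reach beyond the member. The counts therefore need not describe the member alone.

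Within the limit, the share without a Dido1∆E16 peak was lowest in the class nearest to the gene and highest in the farthest. It was 53.2% of 554 members up to 5 kb from the start site and 64.1% of 499 members between 40 and 50 kb, and the classes between ranged from 57.5% to 59.0%. Members with a peak in all 4 libraries were 20.8% in the nearest and 10.8% in the farthest class. The median distance of the member peaks was 17434 and 17385 bp in WT and 16476 and 17795 bp in Dido1∆E16, with overlapping groups. With HOMER peaks the groups did not overlap, and the difference was -1094 bp. Members were chosen by this distance, so a test of it decides nothing and the values are a description only. Between 69.6% and 71.5% of the member peaks of a library lay upstream of the start site. At the limit itself, 46, 114, 12 and 21 peaks of WT replicates 1 and 2 and Dido1∆E16 replicates 1 and 2 lay in the last kb inside, and 51, 113, 14 and 23 in the first kb outside. Their median scores were 26.5, 42, 36 and 24 inside and 32, 41, 34 and 26 outside, so the limit separated no visible step.

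Peak width followed the same classes. The median width of the merged region was 472 bp for members with WT peaks only, 633 bp with a peak in 1 Dido1∆E16 library and 747 bp with a peak in all 4. Merging more libraries can itself widen a region. The peaks of single WT libraries had the same order, at 281, 386.5 and 515 bp in replicate 1 and 450, 618 and 742 bp in replicate 2. Per library, the median width of member peaks was 320 and 360 bp in WT and 319 and 320 bp in Dido1∆E16 (exact two-sided permutation p = 0.667). The groups came apart with the same number of peaks per library, at a difference of -139 bp, and with HOMER peaks, at -44.5 bp (exact two-sided permutation p = 0.333 for both, the smallest possible). A member was intergenic by the authors' annotation, but 17.5% of all members overlapped a gene of GENCODE release M21, including 7.95% that overlapped a long noncoding gene. The overlap was 16.3% for members with WT peaks only and 27.2% for members with a peak in all 4 libraries.

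Promoter peaks of the genes nearest to members with WT peaks only were retained at close to the share of all members' genes. The members with WT peaks only were nearest to 2272 genes, of which 1087 (47.8%) had a promoter peak in both WT libraries. In 70.4% of these, the promoter peak was present in both Dido1∆E16 libraries as well. The share was 68.9% for the genes of all members and 71.6% for genes of members with a peak in all 4 libraries, and 67.7% of all promoter regions seen in both WT libraries had a peak in all 4. No test was applied to these differences.

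Members that kept their peaks were richer in CpG. In the 200 bp around the centre of the region, median GC content was 49.5% for members with WT peaks only, 51.0% with a peak in 1 Dido1∆E16 library and 52.5% with a peak in all 4 libraries, against 65.0% for promoters. The mean number of CpG in the window was 3.69, 4.64 and 7.02 in the same order of members. Among members seen in both WT libraries, the share without a Dido1∆E16 peak was 69.3% in the lowest of 5 classes of GC content and 40.6% in the highest. The 3 classes between had 62.1%, 59.0% and 58.6%, so that most of the difference lay at both ends. Of the windows printed above, that of Hlf (21 CpG, all 4 libraries) and that of Meis1 (13 CpG, WT peaks only) both lie in the highest class of GC content, and that of Lmo2, without CpG, lies in the middle class. Repeat content also differed. At least 50% of the window was masked as repeat in 5.07% of members with WT peaks only, 9.70% with a peak in all 4 libraries and 77.3% (17 of 22) with Dido1∆E16 peaks only. Per library, 5.79% and 8.45% of WT member peaks and 14.6% and 19.5% of Dido1∆E16 member peaks were so masked (exact two-sided permutation p = 0.333, the smallest possible).

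**Figure D3:**
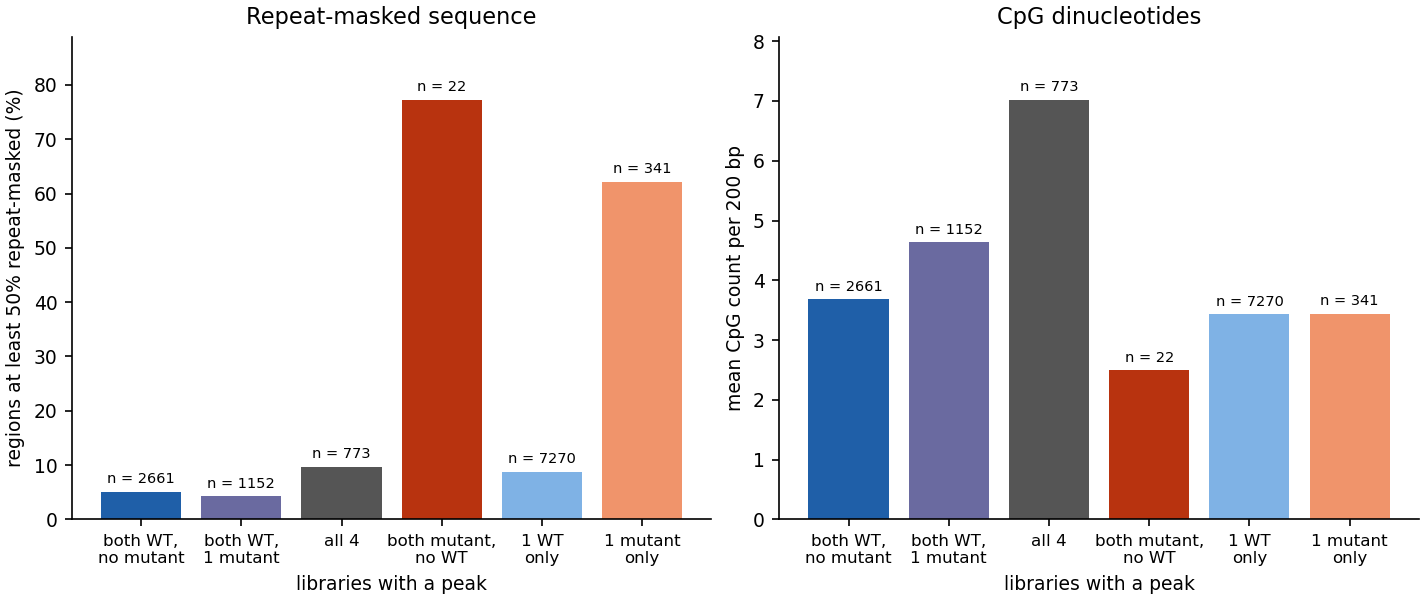
Bars give the percentage of members whose central 200 bp were at least 50% masked as repeat (left) and the mean number of CpG per 200 bp (right), by the libraries in which the member had a peak, with the number of members above each bar. Masked windows are most frequent with peaks in both Dido1∆E16 libraries and no WT library, at 77.3%, and CpG with peaks in all 4 libraries, at 7.02.

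Members with a CTCF motif were more often without a Dido1∆E16 peak. The core motif of CTCF was matched in 7.04% of all member windows, against 4.41% of the windows of all merged regions. Of 270 members with a match and a peak in both WT libraries, 215 (79.6%) had no Dido1∆E16 peak and 18 (6.67%) had a peak in all 4 libraries. Of 4316 members without a match, 56.7% had no Dido1∆E16 peak and 17.5% had a peak in all 4. The difference had the same sign in each class of WT score. From the weakest to the strongest class, 91.1%, 93.6%, 85.7%, 66.7% and 13.6% of the members with a match had no Dido1∆E16 peak, against 81.8%, 71.0%, 56.6%, 33.5% and 7.87% of the members without. It was not particular to the members, since shares with and without a match were 80.7% and 60.3% in introns, 81.1% and 60.1% beyond 50 kb, and 38.3% and 14.8% in promoters. Per library, the share of member peaks with a CTCF match was 6.43% and 7.19% in WT and 3.36% and 2.74% in Dido1∆E16, with means of 6.81% ± 0.534 and 3.05% ± 0.441 (SD, n = 2, exact two-sided permutation p = 0.333, the smallest possible). With the same number of peaks in each library the shares were 6.91%, 6.43%, 3.36% and 2.81%. The regions of Cldn10, Kcnh8, Fthl17f and Pole4 printed above belong to this group, and the Cldn10 region had WT scores of 76 and 172. HOMER called a peak in both Dido1∆E16 libraries at Cldn10 and Pole4, in replicate 2 alone at Kcnh8, and in no library at Fthl17f. The comparison of CTCF was singled out after the values of 12 motifs were seen.

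The other motifs were searched as fixed letters on both strands, and a match describes the letters and not a bound site. The first number in each bracket below is the share of windows with a match over all merged regions, promoters included. Members with the KLF and SP box GGGGCGGGG (3.51%, against 1.52% of member windows) had no Dido1∆E16 peak in 42.4% of 92 cases against 58.3% without it. For members with the NF-Y box CCAATNA (6.97%) it was 51.5% against 58.5%. The direction was opposite for the HOX and MEIS letters TGATTNAT (1.74%), with 69.4% against 57.8%, and for the GATA letters AGATAAG (2.91%), with 68.0% against 57.7%. The C/EBP letters TTGCNNAA (8.47%) gave 65.0% against 57.3%, and the PU.1 letters GAGGAAGT (5.70%) gave 63.3% against 57.6%. Median GC content was 60.3% for members with the KLF box, whose letters are all G or C, 49.5% for those with the NF-Y or the PU.1 letters, 48.0% for those with the GATA or the C/EBP letters and 46.0% for those with the HOX letters. Smaller differences were seen for the RUNX letters TGTGGTTT (3.76%, with 61.2% against 57.8%), the IRF letters GAAANNGAA (7.23%, with 60.5% against 57.8%), the E-box CAGCTG (14.2%, with 55.3% against 58.5%) and the AP-1 letters TGANTCA (6.69%, with 57.5% against 58.1%). The ETS letters ACCGGAAG (0.996%), which share GGAAG with the PU.1 letters, were present in 22 members seen in both WT libraries, of which 72.7% had no Dido1∆E16 peak.

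**Figure D4:**
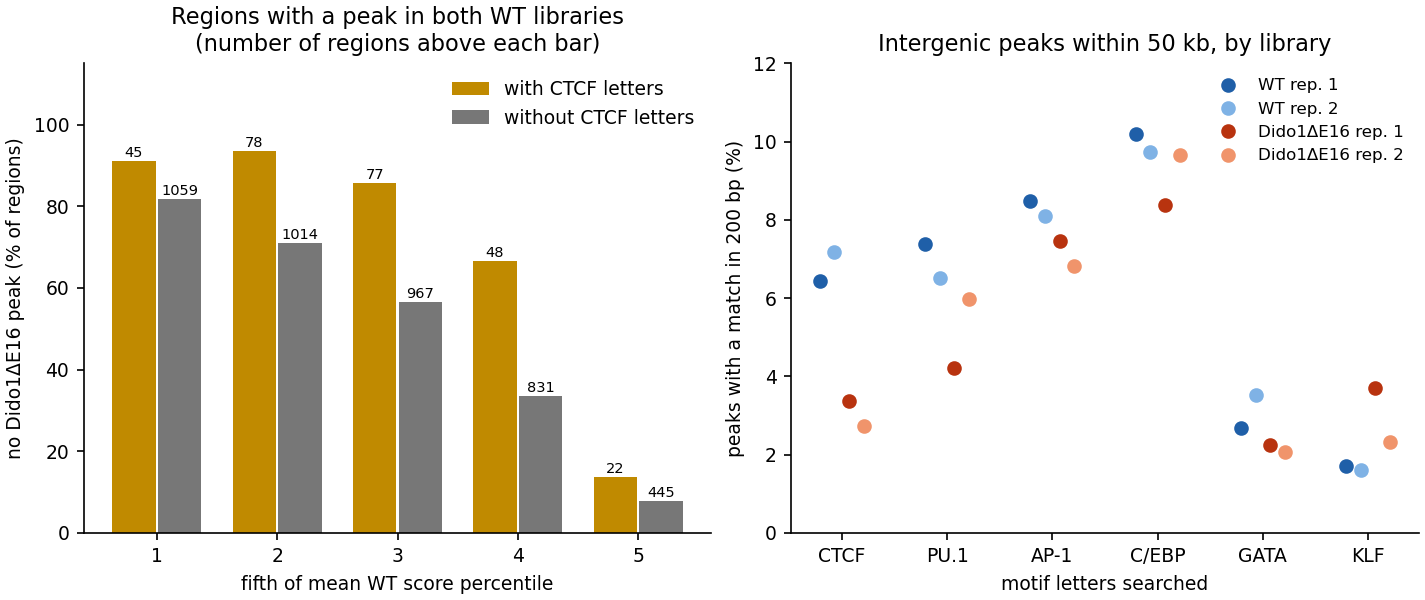
On the left, bars give the percentage of members seen in both WT libraries that had no Dido1∆E16 peak, by class of WT score from 1 (weakest) to 5 (strongest), with and without a CTCF match, and the number of members above each bar. On the right, points give the percentage of member peaks of each library with a match to 6 of the motifs, and for CTCF both WT points (6.43% and 7.19%) lie above both Dido1∆E16 points (3.36% and 2.74%).

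Genes of stem and progenitor cells had members in each of these classes. Of 27 transcription factors of stem cells, 15 had 36 members, counted as 16, 32, 4 and 8 regions in WT replicates 1 and 2 and Dido1∆E16 replicates 1 and 2. Of 14 seen in both WT libraries, 6 had WT peaks only, 7 had a peak in 1 Dido1∆E16 library and 1 had a peak in all 4 libraries, against 58.0%, 25.1% and 16.9% of all members. The highest scores with WT peaks only were those of Meis1 and Lmo2, and Meis1, Tal1, Runx1 and Hlf were named after their values were seen. The Meis1 region (chr11:19020358-19020655, 1389 bp upstream of the start site) scored 43 and 108 in the WT libraries, and HOMER called a peak there in both Dido1∆E16 libraries. Meis1 codes for a homeobox factor of stem cells. The Lmo2 region (chr2:103944821-103945287, 12708 bp upstream) scored 65 and 65, with a HOMER peak in Dido1∆E16 replicate 2. Lmo2 codes for an adaptor of the GATA and Tal1 complex, and another region of it, 11801 bp upstream, scored 20 and 56 in WT only. Both regions had the same log2 tag counts, at 7.41, 6.79, 6.30 and 6.31 in WT replicates 1 and 2 and Dido1∆E16 replicates 1 and 2. These tag counts therefore do not describe either region alone. Further regions with WT peaks only lay 7863 bp upstream of Tal1 (scores 17 and 60), 41192 bp upstream of Runx1 (18 and 21) and 32517 bp upstream of Nkx2-3 (29 and 67). Tal1 and Runx1 code for factors that blood stem cells need to form. Among the 7 with a peak in 1 Dido1∆E16 library, a Meis1 region 8308 bp upstream scored 24 and 40 in WT and 48 in Dido1∆E16 replicate 2. A Myb region 17876 bp upstream scored 15 and 60 in WT and 63 in Dido1∆E16 replicate 1. In the rest of the 7 the Dido1∆E16 score exceeded neither WT score. The only member of the list with a peak in all 4 libraries was the CpG-rich region 26889 bp upstream of Hlf (chr11:90417806-90418329), which scored 41, 168, 16 and 34. By number of regions, Nkx2-3, Fli1, Lmo2 and Myb led the list, with 1, 5, 0 and 0 for Nkx2-3, 2, 3, 0 and 2 for Fli1, 2, 3, 0 and 0 for Lmo2 and 2, 3, 1 and 1 for Myb. Every one of these 4 genes had more regions in each WT library than in Dido1∆E16 replicate 1.

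**Figure D5:**
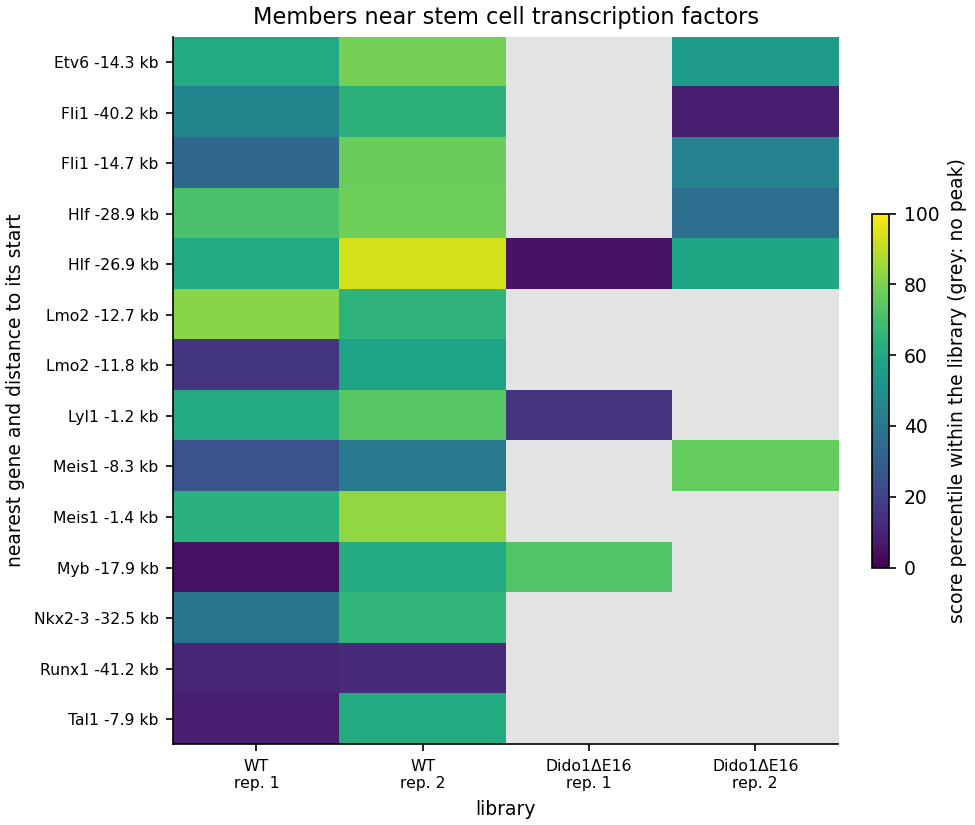
Colours give the rank percentile of the MACS2 score within each library (0 to 100, grey where no peak was called) for members seen in both WT libraries near stem cell transcription factors, named by gene and by distance to its start in kb. The Hlf region at 26889 bp alone is coloured in all 4 libraries, and the Lmo2, Tal1, Runx1 and Nkx2-3 regions are grey in both Dido1∆E16 libraries.

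Receptors and surface proteins of the same cells had more regions and the same range. Of 25 genes, 18 had 54 members, with 28, 52, 11 and 8 in WT replicates 1 and 2 and Dido1∆E16 replicates 1 and 2. Of 27 seen in both WT libraries, 13 (48.1%) had WT peaks only, 11 had a peak in 1 Dido1∆E16 library and 3 had one in all 4, against 58.0% with WT peaks only over all members. S1pr1, which codes for a receptor that guides cells out of tissues along sphingosine phosphate, had 4, 13, 2 and 1 regions and was among the 8 genes with most members. Ly6e had 3, 7, 2 and 0, Cxcr4 had 3, 6, 2 and 1, and Cd44 had 3, 3, 1 and 2. Cxcr4 codes for the chemokine receptor that retains stem cells in the marrow, and its region 22292 bp upstream (chr1:128614591-128615783) scored 67, 143, 29 and 47. The regions with peaks in all 4 libraries belonged to Cxcr4, Cd47 and Itga4. The Cd34 region 10464 bp upstream (chr1:194927838-194928357) scored 74 and 147 in WT and 20 in Dido1∆E16 replicate 2, had no peak in Dido1∆E16 replicate 1, and had log2 tag counts of 6.57, 6.22, 5.51 and 5.46. Cd34, Cd47 and Itga4, which code for a progenitor antigen, an anti-phagocytic signal and an integrin chain, were named after their values were seen. Regions with WT peaks only lay near Procr (7736 bp upstream, 16 and 37) and Slamf1 (4793 bp upstream, 44 and 33), also named after their values were seen.

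T-lineage and erythroid genes had the fewest members among the lineage lists. Early lymphoid and B-lineage genes had 46 members, in 17, 44, 7 and 9 regions, and of 17 seen in both WT libraries 9 (52.9%) had WT peaks only and 4 had peaks in all 4 libraries, against 58.0% and 16.9% over all members. Among them Klf3 had 1, 5, 1 and 0 regions, Sox4 had 1, 5, 1 and 1, Bcl11a had 3, 4, 1 and 2, and Irf4 had 2, 3, 0 and 2. T-lineage genes had 14 members, in 4, 12, 0 and 2 regions, and of 3 seen in both WT libraries 2 (66.7%) had WT peaks only. Runx3 and Tcf7 had 1 region each in Dido1∆E16 replicate 2 and none in replicate 1, and Bcl11b and Zap70 had none in either. Myeloid genes had 31 members, in 17, 28, 6 and 9 regions. Of 15 seen in both WT libraries 7 (46.7%) had WT peaks only and 5 had peaks in all 4. Cebpa, which codes for the factor that directs granulocyte formation, had 1, 3, 0 and 0 regions, Itgam had 3, 4, 0 and 0, Egr1 had 4, 4, 0 and 1, and Csf2ra, a receptor chain for GM-CSF, had 3, 3, 2 and 4. Csf2ra was the only named gene of this list with as many regions in a Dido1∆E16 library as in a WT library. Erythroid and megakaryocyte genes had 9 members, in 3, 8, 0 and 1 regions, with 1, 3, 0 and 0 for Car2, while Ank1 and Gp9 had a region in WT replicate 2 alone.

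Signalling, cell cycle and Polycomb genes were described in the same way, beside the 58.0% of all members seen in both WT libraries that had WT peaks only. Cytokine signalling genes had 37 members, in 17, 36, 10 and 12 regions, and of 17 seen in both WT libraries 7 (41.2%) had WT peaks only and 7 had peaks in all 4, against 16.9% with peaks in all 4 over all members. Il6st, the shared receptor chain for interleukin 6, had 2, 5, 1 and 1 regions, and Ifngr2 had 2, 4, 1 and 2. The feedback inhibitors Socs3 and Smad7 had 1, 4, 0 and 0, and 3, 3, 1 and 2. Cell cycle genes had 26 members, in 9, 25, 4 and 5 regions, and of 8 seen in both WT libraries 2 had WT peaks only and 3 had peaks in all 4. Ccne1 and Ccnd1, which code for cyclins of the G1 phase, had 1, 7, 1 and 1, and 1, 3, 0 and 1 regions, and the antiproliferative genes Btg2 and Btg1 had 3, 4, 3 and 2, and 1, 2, 0 and 0. Polycomb genes, whose products silence chromatin, had 10 members, in 4, 10, 1 and 1 regions, with 2 of 4 seen in both WT libraries having WT peaks only. Phc1 had 1, 2, 0 and 0 regions, and Aebp2, Bmi1 and Cbx2 had 1 region each, in WT replicate 2. No list held a member with peaks in both Dido1∆E16 libraries and no WT library, and 6 lists held 1 or 2 members each with a Dido1∆E16 peak in a single library and none in WT.

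Members with WT peaks only sometimes lay in groups near a single gene. Commd7, Fyb, Gm8013, Spcs3 and Ube2d1 had 4 such members each, and 0610040F04Rik, 2610301B20Rik and 4921511I17Rik had 3. Those of Ube2d1, which codes for a ubiquitin-conjugating enzyme, lay between 5745 and 20915 bp upstream and were all its members. Fyb codes for an adaptor of lymphocyte signalling, and its 4 among 8 members, of which 4 had a peak in Dido1∆E16 replicate 2, lay between 4911 and 24781 bp upstream, with scores of 17 to 33 and 55 to 73 in WT replicates 1 and 2. All 4 members of 4921511I17Rik and all 5 of Spcs3, a subunit of the signal peptidase, were without a Dido1∆E16 peak. This was the common case. Of all members, 20.8% had peaks in both WT libraries only, 55.0% in WT replicate 2 alone and 1.85% in WT replicate 1 alone. Over all merged regions these shares were 18.4%, 48.2% and 1.66%. The genes were picked for having most members with WT peaks only. By mean rank percentile of the score, the highest members with WT peaks only lay near Dtnb, Kif16b, Gm5150, Yap1, Cldn10, 4921511I17Rik, Tnmd and AV320801, with scores of 75 to 101 in WT replicate 1 and 152 to 195 in WT replicate 2. The first of them, 11376 bp upstream of Dtnb (chr12:3560637-3561015), scored 90 and 195, and HOMER called a peak there in both Dido1∆E16 libraries, as it did near Cldn10. The region 12616 bp upstream of Yap1 (chr9:8017212-8017578), which codes for the effector of Hippo signalling, scored 77 and 177 and had a HOMER peak in Dido1∆E16 replicate 2.

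Members with a peak in all 4 libraries included some with nearly constant scores. The highest by mean rank percentile of the score over the 4 libraries was 35388 bp upstream of Pak3 (chrX:143482913-143483204) and scored 756 and 834 in WT and 732 and 805 in Dido1∆E16. Near Abcb11 (chr2:69355446-69355756) the scores were 874, 971, 667 and 736, and near Mrgprd (chr7:145340840-145341506) they were 610, 639, 656 and 643. Of the 8 highest by this measure, the regions near Mrgprd, A630089N07Rik, Gm14496 and Mir101c were masked as repeat over the whole window. Part of the Abcb11 region and the whole region near Col19a1 (chr1:24611561-24612595, scores of 360, 389, 343 and 356) matched the mitochondrial genome. By number, Mir101c had most members, with 17, 20, 17 and 19 regions in WT replicates 1 and 2 and Dido1∆E16 replicates 1 and 2, followed by Erdr1 with 5, 13, 8 and 9 and Gm17019 with 3, 7, 5 and 10. Mir101c and Erdr1 had region counts in Dido1∆E16 within the WT range, and Gm17019 had its highest count in Dido1∆E16 replicate 2, whereas Gm21119 had 2, 11, 1 and 5, 4933433H22Rik 4, 10, 1 and 2, 5830428M24Rik 3, 8, 1 and 2, and 8430430B14Rik 5, 9, 2 and 2. The members of Mir101c lay within chr9:3000560-3035520 and had a median masked share of 100% of the window.

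Scores of the 773 members with a peak in all 4 libraries were compared with limma on log2 scores centred on the median of each library, in a fit over all 9072 such regions. At an adjusted p under 0.05 by limma with Benjamini-Hochberg adjustment, 16 members were higher in Dido1∆E16 and 0 were lower, against 0.661% of all regions higher and 0.011% lower. At an unadjusted p under 0.05, 83 members were higher and 58 lower. The split rested on single libraries, with 57 members higher and 6 lower without Dido1∆E16 replicate 1, and 24 higher and 62 lower without Dido1∆E16 replicate 2. The count also rested on the scale, since on rank percentiles of the score 0 members were called and 8 members were higher and 188 lower at an unadjusted p under 0.05. The median log2 difference was -0.08 over the members and 0.04 over all regions. The region 22800 bp downstream of the start site of Fam107a (chr14:8286574-8286976) had the smallest p, with scores of 55 and 155 in WT and 204 and 274 in Dido1∆E16. Its log2 difference after centring was 2.40 (SE 0.341, limma adjusted p = 0.00122), and both Dido1∆E16 scores were above both WT scores also before centring. The same held for Erdr1 (chrY:90767797-90768073), with scores of 53, 113, 174 and 165, for Tmem125 (chr4:118547116-118548465), with 73, 264, 269 and 420, and for Igf2bp3 (chr6:49236361-49236707), with 69, 171, 209 and 203. Igf2bp3 codes for an RNA-binding protein of fetal tissues and fetal blood stem cells. Near Nwd1 (chr8:72642753-72643285) the scores of 27 and 113 in WT and 89 and 163 in Dido1∆E16 overlapped before centring, and the log2 difference was 2.17 (SE 0.409, limma adjusted p = 0.00641). The 16 log2 differences ranged from 1.52 to 2.40. At least 50% of the window was masked as repeat in 6 of the 16 (37.5%), against 75 of the 773 (9.70%), and the part of repeats in the result was not tested. In the other direction, the region 3677 bp upstream of Tm6sf1 (chr7:81854766-81855324) came closest, with scores of 68 and 134 in WT and 13 and 15 in Dido1∆E16 (log2 difference -1.72, SE 0.461, limma adjusted p = 0.0874), and did not pass the threshold.

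The 22 members with Dido1∆E16 peaks only lay mostly in repeats. Their median score was 25 in both Dido1∆E16 libraries, below the 34 of all member peaks in replicate 1 and equal to the 25 in replicate 2. The highest by mean rank percentile was the region of repeated units near 1500009L16Rik (chr10:83699428-83699691, 23174 bp upstream), with scores of 44 and 84, followed by a region 20491 bp upstream of Erdr1 on chromosome Y, with 48 and 66. The next 6 lay near 1700064M15Rik, Ascc3, Olfr1413, 4933427E13Rik, 4930519F09Rik and Bcas1os2, with scores between 24 and 41, and of these 6 the 1700064M15Rik window was the only one not masked. HOMER called a Dido1∆E16 peak at 1 of the 22, in replicate 2, and at none of them a WT peak. Without the windows that were at least 50% masked, 5 such members remained.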

How the data were processed

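LSK cells were profiled by Omni-ATAC-seq in 2 WT and 2 Dido1∆E16 libraries; libraries were grouped by the labels, and although the study's methods mention 3 per genotype, only the labelled 2 were used. Per the labels and methods, the authors used Bowtie2 or BWA-MEM (BWA 0.7.15 in the submitters' processing notes) for alignment to mm10, removed duplicates with Picard and blacklisted regions, ran both MACS2 and HOMER on each library, and used ChIPseeker for annotation. The deposited MACS2 tables give a score per peak, whose formula was not given in the sources used here. The deposited tables of differential regions give log2 tag counts per library and the total of tags. Their fold changes and p-values, which hold the authors' own comparisons, were not used.

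Member peaks overlapping by at least 1 bp were merged over the 4 libraries into the member regions. The other kinds of region, and all annotations together, were each merged separately from their own peaks. A region counted as seen in a library when any peak of that library overlapped it. The 9 gene lists, the members and the motifs were chosen with earlier results of these data known. Named genes were the 4 of each list with most members, the 8 genes or regions that led each class, and the 5 limma calls of smallest p in each direction; other genes are marked in the text. Some genes that this rule picks are not reported here. Sequences, masking and the 12 motifs, each in the central 200 bp, came from GRCm38.p6 with samtools 1.23.1, and blastn 2.17.0 (E value at most 1e-10) gave mitochondrial matches. Shares were compared by exact two-sided permutation of libraries (scipy 1.17.1). Log2 scores, centred on the library median, were fitted by genotype with limma 3.58.1 in R 4.3.3 over all regions with a peak in each library, with a trend, a threshold of 0.05 and no replicate block. The scripts were tested on simulated data. The depth per library was 10249256 to 52050898 tags, a total that does not give the depth of a single peak, so intervals cover the counting of regions only. Alternatives were HOMER peaks, the same number of peaks, the better-scoring 50%, overlap of 50%, a limit of 30 kb, other scalings, the replicate block and each library left out. Those on CTCF and on masked windows were chosen after seeing the data.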

Additional observations from a re-analysis of the deposited data

How the results depend on the processing

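The difference in the share of peaks that were members (-6.74 points) kept its direction under each of its 10 alternatives but not its size, ranging from -8.36 points without WT replicate 1 to -2.52 points when every library kept 13208 peaks. The difference in median width (-20.5 bp) kept its direction under 9 and ranged from -139 bp with the same number of peaks to -0.5 bp without WT replicate 2. The replicate block is counted in both the 10 and the 9, although it cannot change these differences in a balanced design. The difference in GC content kept its direction under 6. The share of members seen in both WT libraries without a Dido1∆E16 peak (58.0%) was 39.1% with HOMER peaks, 26.3% with the same number of best-scoring peaks and 61.2% with the better-scoring 50%, and it ranged from 60.4% to 79.6% when each library was left out, the highest value being that without WT replicate 1. For members with a CTCF match (79.6%) it was 51.8% with HOMER peaks (38.3% without a match), 52.3% with the same number of peaks (24.9% without) and 71.3% over the whole merged region, and 80.6% to 91.6% with each library left out. The count of members with Dido1∆E16 peaks only (22) was 1 with HOMER peaks, 147 with the same number of peaks, 11 with the better-scoring 50% and 5 without masked windows, and 23 to 303 with each library left out, with 303 without Dido1∆E16 replicate 1, 103 without WT replicate 2 and 83 without Dido1∆E16 replicate 2. Limma called 16 members, and 6 without a trend, 0 on rank percentiles of the score, and 9 to 86 with each library left out. Without Dido1∆E16 replicate 1 it called 63 (57 higher, 6 lower), and without Dido1∆E16 replicate 2 it called 86, of which 62 were lower in Dido1∆E16. In these fits the lone library was assumed to vary like the others. The mean score percentile of member peaks differed by -3.20, and by 0.843 in the other direction with the same number of peaks. The median distance, which the rule for members limits, differed by -274 bp, by -1094 bp with HOMER peaks (groups apart), by -590 bp with the same number of peaks, by -52.5 bp within 30 kb and by 385.5 bp without Dido1∆E16 replicate 1 (range over the left-out libraries -933.5 to 385.5). With a library left out, presence and absence were asked only of the libraries that remained. The count of members with Dido1∆E16 peaks only is then looser and rises by definition. So do the shares without a Dido1∆E16 peak when a Dido1∆E16 library is left out. The cause of the other changes was not tested.

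The deviations of same-numbered libraries from their group means had a correlation of -0.0746. With 2 libraries per genotype this value is the same for both replicate numbers by construction. It therefore cannot decide whether the replicate numbers pair the libraries. With the replicate block, limma called 24 members (22 higher, 2 lower), and the difference in member share was -6.74 points (paired exact p = 0.5, the smallest possible). The differences of -3.20 in score percentile, -274 bp in distance and -20.5 bp in width were the same with the block. In this balanced design a block cannot change a difference of group means, so the sameness shows nothing. With 2 libraries per genotype the exact permutation test cannot pass a threshold of 0.05.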

Other observations

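Members with a peak in Dido1∆E16 replicate 2 alone numbered 281, against 60 in Dido1∆E16 replicate 1 alone. Of the 281, 53 (18.9%) lay on chromosome 1, which held 8.82% of all members. A further 32 (11.4%) lay on chromosome 10, which held 6.57% of all members. Of the 60, 8 lay on chromosome 1 and 12 on chromosome 10. Of the 22 members with peaks in both Dido1∆E16 libraries and no WT library, 5 lay on chromosome 1 and 5 on chromosome 10. No test was applied to these counts. Of the 341 members with a peak in a single Dido1∆E16 library and none in WT, 62.2% had a window that was at least 50% masked as repeat, against 8.76% of the 7270 members with a peak in a single WT library and none in Dido1∆E16.

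The letters of PU.1, a factor of myeloid and early lymphoid progenitors, were present in 7.38% and 6.51% of the member peaks of the WT libraries and in 4.22% and 5.97% of those of the Dido1∆E16 libraries, and the letters of HOX and MEIS factors in 1.80% and 2.13% against 0.857% and 1.39%. The E-box CAGCTG was present in 16.6% and 15.1% against 16.1% and 14.7%, with overlapping groups. With the same number of peaks per library the E-box shares were 17.8% and 16.10% against 16.08% and 16.05%, and the groups were apart. With all peaks, the exact two-sided permutation p was 0.333 for PU.1 and for HOX, the smallest that 2 libraries against 2 can give, and 0.667 for the E-box. These 3 motifs were picked from 12 after their values were seen. With all peaks the groups were also apart, at the same p by this test, for the GATA, CTCF, AP-1, C/EBP and IRF letters, lower in Dido1∆E16. They were apart for the ETS and KLF letters as well, which were higher in Dido1∆E16. With the same number of peaks per library, the ETS and KLF groups overlapped. The ETS shares were then 0.619% and 0.627% in WT against 0.989% and 0.599% in Dido1∆E16. The KLF shares were 1.86% and 2.77% against 3.69% and 2.28%. The PU.1, HOX, GATA, CTCF, AP-1, C/EBP and IRF groups stayed apart, lower in Dido1∆E16.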
